A study of Homo sapiens with 10 samples.

Results

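The genes described here are 10 target and feedback genes of the Wnt pathway (AXIN2, LGR5, NKD1, RNF43, ZNRF3, ASCL2, TCF7, LEF1, SP5 and NOTUM), chosen by name for their known place in the pathway, at a time when earlier results of these data were known. They are 10 of the 57993 gene symbols in the tables, and 7 of them were expressed highly enough to be tested, among 17779 genes tested in all. Their RNA was measured in HCT116 cells, which come from a human colorectal carcinoma, and in HCT116 cells that the labels give as KDM5A-/-. The KDM5A protein demethylates histone H3 near gene starts, and the series title names SMYD2 as an enzyme that methylates it.

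RNA came from 10 libraries in 4 groups: parental cells with empty vector (2 libraries), KDM5A-/- cells with empty vector (3), KDM5A-/- cells with a plasmid for wild-type KDM5A (3) and KDM5A-/- cells with a plasmid for a mutant KDM5A (2). All were sorted for GFP 24 hours after transfection, so the controls had also been transfected and sorted. Both lines were bought from Horizon, and only the KDM5A-/- culture was kept in 300 µg/mL G418. Genotype, line and G418 therefore cannot be told apart in the comparison of parental with knockout cells. The labels give neither the mutation, nor the number of knockout clones, nor which of the sequencers named there read which library. The labels do not say whether libraries of a group were separate cultures, and each p-value therefore reflects only library-to-library spread, which may be technical. Each library was a table labelled as FPKM (fragments scaled to exon length and library total) on a log2 scale, and its depth is unknown. The linear values summed to 999975 to 1000008 in every library, so they may be FPKM rescaled to a fixed total. The name FPKM is kept from the label. Values below are scaled FPKM, that is, linear FPKM divided by 1 factor per library.

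In Wnt signalling, a secreted ligand binds a Frizzled receptor and an LRP co-receptor, and this stops a cytoplasmic destruction complex from marking beta-catenin for degradation. Beta-catenin then joins DNA-binding proteins of the TCF/LEF family and switches on target genes, several of which feed back to dampen the signal. The pathway maintains the stem cells of the intestinal crypt, and it is switched on by mutation in most colorectal cancers; HCT116 carries an activating mutation of beta-catenin itself.

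The members were protein-coding genes on GRCh38, with positions from the deposited tables (counted from 1) and strands from GENCODE release 29. Among the receptor-level genes, RNF43 lay on the minus strand of chromosome 17 at 58352500 to 58417595, ZNRF3 on the plus strand of chromosome 22 at 28883592 to 29057487, and LGR5 on the plus strand of chromosome 12 at 71439770 to 71586310. NOTUM (81952507 to 81961840) and AXIN2 (65528563 to 65561647) were also on the minus strand of chromosome 17, and NKD1 was on the plus strand of chromosome 16 at 50548330 to 50640739. The transcription factor genes were TCF7 (chromosome 5, 134114711 to 134151865, plus), LEF1 (chromosome 4, 108047545 to 108168956, minus), SP5 (chromosome 2, 170715351 to 170718078, plus) and ASCL2 (chromosome 11, 2268495 to 2270952, minus).

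Promoter windows of the 250 bases before a start site were matched by symbol in RefSeq (GRCh38.p14) for 4 of the 10 members, RNF43, TCF7, LEF1 and SP5, in 6 windows. They were searched on both strands for 4 forms of the 7-letter core to which TCF/LEF proteins bind, and no matches overlapped in these windows. The letters CTTTGAT were held by 2.26% of human windows, the letters CTTTGTT by 4.50%, those of CTTTGAA by 3.80% and those of CTTTGTA by 2.35%. Any of them was held by 4199 of 35116 human windows of the same length. The window of SP5 held 3 matches, a number reached by 43 of all windows (0.122%). That cutoff is the count of SP5 itself, the highest of the 6 windows, so the share is a description. The second window of TCF7 held 1 match, and the other TCF7 window, the window of LEF1 and both of RNF43 held none. Both TCF7 windows, the LEF1 window and the second RNF43 window lie inside the positions given above for their gene. Shown 5′ to 3′ with the matches in capitals are the 2 windows with matches, and the first RNF43 window because RNF43 was the member that passed in 2 comparisons. They are chr2:170715087-170715336 (plus strand), chr5:134123368-134123617 (plus) and chr17:58417535-58417784 (minus).
SP5: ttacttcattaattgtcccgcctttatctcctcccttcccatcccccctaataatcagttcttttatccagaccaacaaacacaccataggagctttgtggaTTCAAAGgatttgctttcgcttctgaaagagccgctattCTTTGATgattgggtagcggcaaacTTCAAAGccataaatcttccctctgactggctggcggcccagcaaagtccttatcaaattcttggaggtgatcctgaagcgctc
TCF7: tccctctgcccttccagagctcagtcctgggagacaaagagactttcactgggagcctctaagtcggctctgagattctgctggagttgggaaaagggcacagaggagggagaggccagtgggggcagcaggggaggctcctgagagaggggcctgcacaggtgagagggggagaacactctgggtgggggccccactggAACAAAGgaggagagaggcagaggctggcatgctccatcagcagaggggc
RNF43: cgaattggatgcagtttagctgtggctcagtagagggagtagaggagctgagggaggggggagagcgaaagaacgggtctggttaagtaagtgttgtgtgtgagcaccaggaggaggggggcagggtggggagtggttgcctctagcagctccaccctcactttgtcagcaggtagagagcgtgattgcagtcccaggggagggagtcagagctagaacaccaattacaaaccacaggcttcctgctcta
In the SP5 window the matches began 148, 109 and 84 bases before the start site, and in the TCF7 window 50 bases before it. A match is a description of letters and no evidence of binding.

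Because FPKM is per length of exon, levels can be set side by side between genes. In parental cells the order of mean scaled FPKM was RNF43 (34.2 ± 2.57, SD, n = 2), TCF7 (24.3 ± 2.60), NOTUM (10.5 ± 0.781), ZNRF3 (9.66 ± 2.04), AXIN2 (7.45 ± 2.17), NKD1 (3.61 ± 1.26) and SP5 (1.65 ± 0.158), with LGR5, LEF1 and ASCL2 below. The libraries of NOTUM and ZNRF3 overlapped, as did those of ZNRF3 and AXIN2. In KDM5A-/- cells with empty vector TCF7 stood first (21.9 ± 1.97, n = 3), then RNF43 (17.2 ± 1.59) and ZNRF3 (10.8 ± 1.22), and the libraries of NOTUM (5.13 ± 0.423), NKD1 (4.13 ± 0.668) and AXIN2 (4.0003 ± 0.135) overlapped from each to the next. With wild-type KDM5A the order of means was TCF7, RNF43, ZNRF3, AXIN2, NOTUM, NKD1 and SP5. With mutant KDM5A it was the same, and RNF43 overlapped ZNRF3 with wild-type KDM5A only.

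Facts of the whole series that bear on the members are few. KDM5A was 13.3 and 17.7 scaled FPKM in parental cells and 12.2 to 15.3 in knockout cells with empty vector (log2 difference 0.20, SE 0.13, limma adjusted p = 0.391), so its RNA level does not check the knockout label. In cells given a KDM5A plasmid it reached 13452 to 16237 (wild-type) and 22816 to 23346 (mutant), which is 1136 and 1736 times the level with empty vector. Genes of ribosomal proteins (82) took 15.5% to 16.1% of both mutant libraries and the second parental library and 12.6% to 13.9% of the other 7. Of 13 markers of colorectal epithelium, EPCAM, CDH1, KRT8, KRT18, KRT19 and CDX2 were at 1 or more in every library, while VIL1, CDH17, GPA33, LGALS4 and CDX1 were under 1 in all. The summed level of that list was 4123 to 4172 in knockout cells with empty vector and 5096 to 5616 with mutant KDM5A. Of 6 leukocyte markers, CD68 and CD14 were above 1 throughout, and the sum was 14.6 to 15.5 in knockout cells with empty vector, 21.0 to 26.3 with wild-type KDM5A, 23.5 to 24.4 with mutant KDM5A and 9.88 to 12.7 in parental cells; PTPRC and CD3E stayed at or under 0.706 and 0.00747. The part of these marker lists in the results below was not tested.

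**Figure D1:**
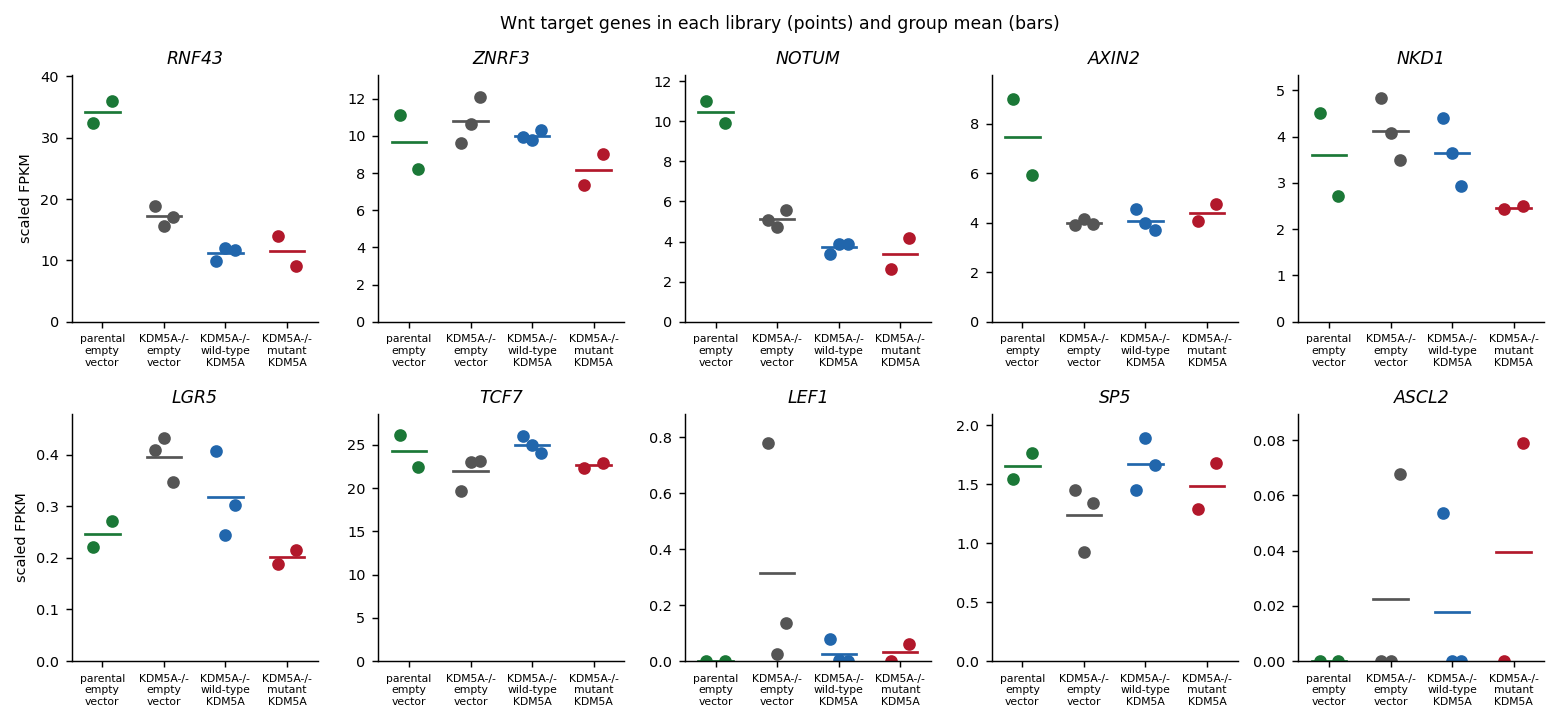
Scaled FPKM of each of the 10 genes (vertical axes, each from 0 and with its own range) in the 4 groups, with 1 point per library and a bar at the group mean. RNF43, NOTUM and AXIN2 were higher in both parental libraries than in any other library, and LGR5, LEF1 and ASCL2 stayed under 1 in all 10.

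Parental cells and KDM5A-/- cells, both with empty vector, differed in 3 of the 7 members tested, RNF43, NOTUM and AXIN2, all higher in parental cells. This was 42.9% of those tested, beside 4.09% of all genes tested that passed as higher and 8.94% in either direction (limma, two-sided, Benjamini-Hochberg adjusted p under 0.05). The other 4, ZNRF3, NKD1, TCF7 and SP5, did not pass. The median log2 difference of the 7 was 0.25, beside 0.00 for all genes tested. In bulk RNA, fewer cells that express a gene and less RNA per cell cannot be told apart.

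RNF43 is a membrane-bound ubiquitin ligase that removes Frizzled receptors from the cell surface. It was 32.3 and 36.0 scaled FPKM in parental cells and 18.8, 15.6 and 17.1 in knockout cells with empty vector. Every parental library was above every knockout library, and the difference was 0.95 on the log2 scale (SE 0.16, adjusted p = 0.00947, limma), a ratio of 1.99. Without the second parental library it was 0.88 and no longer passed (adjusted p = 0.0673). RNF43 shares 143 exonic bases with SUPT4H1, which lies on the same strand, and whether reads there were split between them is not given. GENCODE also places AC004687.2 on the same strand, sharing 4326 exonic bases (57.6% of those of RNF43), and an antisense gene, TSPOAP1-AS1, sharing 1521. The deposited loci that overlap RNF43 were SUPT4H1 and BZRAP1-AS1 (mean 0.481), without AC004687.2. How reads in the shared bases were assigned is not given, so the RNF43 values are uncertain to that extent. SUPT4H1 itself, at a mean of 142, differed by -0.03 (adjusted p = 0.949).

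NOTUM is a secreted enzyme that removes the lipid from Wnt ligands and so inactivates them. It was 11.0 and 9.90 scaled FPKM in parental cells and 5.10, 4.72 and 5.56 in knockout cells with empty vector. The groups did not overlap, and the log2 difference was 0.90 (SE 0.16, adjusted p = 0.0117, limma), a ratio of 2.04. It passed without any 1 library, with adjusted p of at most 0.0496.

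AXIN2 is a scaffold of the destruction complex and a widely used readout of Wnt activity. It was 8.98 and 5.92 scaled FPKM in parental cells and 3.89, 4.15 and 3.96 in knockout cells with empty vector. The parental libraries lay further apart from each other than did the knockout libraries, but both were above all of them. The log2 difference was 0.73 (SE 0.17, adjusted p = 0.0302, limma), a ratio of 1.86. The first parental library carried much of it: without that library the difference was 0.47 and did not pass (adjusted p = 0.112), and without the second it was 0.997. AC004805.1, on the same strand in GENCODE, shares 1316 exonic bases (25.2% of those of AXIN2), and how reads there were assigned is not given. The deposited locus that overlaps AXIN2, CTD-2535L24.2, had a mean of 0.221. AXIN2 also missed the threshold without the first, the second or the third knockout empty-vector library (adjusted p = 0.0774, 0.0741 and 0.0848) and without the second wild-type library (0.0522).

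Members that did not pass included ZNRF3, the close relative of RNF43 with the same action on Frizzled. It was 11.1 and 8.21 scaled FPKM in parental cells and 9.64, 10.7 and 12.1 in knockout cells with empty vector, with overlapping libraries (log2 difference -0.15, 95% interval -0.48 to 0.17, adjusted p = 0.551, limma). NKD1, which binds Dishevelled inside the cell and dampens the signal, was 4.50 and 2.72 against 4.82, 4.07 and 3.49 (log2 difference -0.17, interval -0.64 to 0.30, adjusted p = 0.658, limma). In both genes the second parental library, which has the higher share of ribosomal protein genes, was the lower one.

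TCF7 encodes a DNA-binding partner of beta-catenin. It was 26.1 and 22.5 scaled FPKM in parental cells and 19.7, 23.0 and 23.2 in knockout cells with empty vector (log2 difference 0.14, interval -0.07 to 0.35, adjusted p = 0.387, limma). SP5, a zinc-finger transcription factor and a direct target of beta-catenin, was 1.54 and 1.77 against 1.45, 0.926 and 1.34 (log2 difference 0.25, interval -0.16 to 0.67, adjusted p = 0.432, limma). The SP5 libraries did not overlap, as held for 4 of the 7 members in the higher direction and for 20.6% of all genes tested. SP5 had the lowest level of the 7 members tested and did not pass.

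The remaining 3 members were below the level needed for a test. LGR5, a receptor for R-spondins and the marker of crypt stem cells, was 0.221 and 0.271 scaled FPKM in parental cells, 0.409, 0.431 and 0.347 in knockout cells with empty vector, 0.408, 0.245 and 0.302 with wild-type KDM5A and 0.188 and 0.215 with mutant KDM5A. A non-coding locus inside LGR5 had a mean of 0.283, close to that of LGR5 itself, so the reads may not be told apart at this level. LEF1, a relative of TCF7, reached 0.779 in the first knockout library with empty vector, was at most 0.137 in the others and was listed at 0 in 3. ASCL2, a basic helix-loop-helix factor of crypt stem cells, was listed at 0 in 7 libraries and was at most 0.0790.

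**Figure D2:**
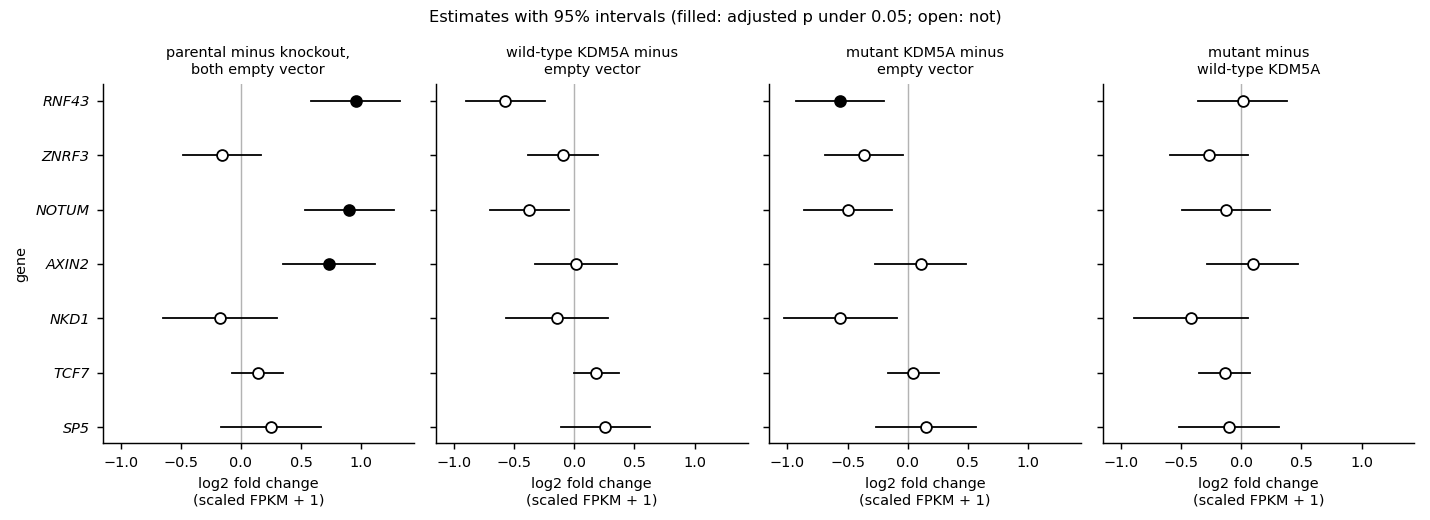
Differences between groups for the 7 genes tested, as log2 fold change of scaled FPKM + 1 (horizontal axis) with 95% intervals, in 4 comparisons. Filled points passed at an adjusted p under 0.05: RNF43, NOTUM and AXIN2 in parental against knockout cells, and RNF43 with mutant KDM5A.

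Wild-type KDM5A against empty vector in KDM5A-/- cells sets cells 24 hours after they received the KDM5A plasmid against their control. None of the 7 members passed (limma), beside 4.54% of all genes tested. At an unadjusted p under 0.05 there were 2 of 7, RNF43 and NOTUM, both lower, beside 20.5% of all genes in either direction and 10.3% lower. The median log2 difference of the 7 was -0.09, beside 0.00 for all genes. This comparison, mutant against empty vector and parental against empty vector share the same 3 control libraries.

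RNF43 was 9.88, 12.1 and 11.7 scaled FPKM with wild-type KDM5A against 18.8, 15.6 and 17.1 with empty vector. The libraries did not overlap, as in 2 of 7 members (RNF43 and NOTUM) and 16.2% of all genes in the lower direction. The log2 difference was -0.57 (SE 0.15, adjusted p = 0.0615, limma), a ratio of 0.653, which missed the threshold. It was past the threshold in 7 of 20 settings tried, with adjusted p between 0.0144 and 0.186. Among these were the fits without the first or the second mutant library (adjusted p = 0.0210 and 0.0207). NOTUM was 3.39, 3.90 and 3.88 against 5.10, 4.72 and 5.56, again without overlap (log2 difference -0.37, SE 0.15, adjusted p = 0.187, limma). The parental libraries of both genes were above those of all KDM5A-/- cells, and the libraries with wild-type KDM5A were below those with empty vector, so the values with the plasmid were further from the parental values.

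AXIN2 was 4.53, 3.98 and 3.69 scaled FPKM with wild-type KDM5A, overlapping the 3.89 to 4.15 of the empty vector (log2 difference 0.02, 95% interval -0.32 to 0.35, adjusted p = 0.975, limma). Between parental and knockout cells the AXIN2 difference was 0.73 (interval 0.35 to 1.11), against the same control libraries. These differences were not tested against each other. ZNRF3 was 9.97, 9.80 and 10.3 (log2 difference -0.09, interval -0.38 to 0.20, adjusted p = 0.750, limma). NKD1 was 4.39, 3.64 and 2.94 (-0.14, interval -0.57 to 0.28, adjusted p = 0.733). TCF7 was 26.0, 24.9 and 24.1, above all 3 empty-vector libraries (as 1 of 7 members, and 16.4% of all genes, in the higher direction), but it did not pass (0.18, interval -0.01 to 0.37, adjusted p = 0.259). TCF7 shares 210 exonic bases with SKP1 on the opposite strand, and no source gives the strand setting; SKP1, with a mean of 413, differed by 0.26 (adjusted p = 0.386). SP5 was 1.45, 1.89 and 1.66 (0.26, interval -0.11 to 0.63, adjusted p = 0.425).

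Mutant KDM5A against empty vector had 1 member past the threshold, RNF43, which was lower. This was 14.3% of the 7 tested, beside 16.5% of all genes in either direction and 7.05% lower, so the share of members was near that of all genes in either direction. Of the 7 members 4, namely RNF43, NOTUM, NKD1 and ZNRF3, were lower in both mutant libraries than in any empty-vector library, beside 23.6% of all genes. The median log2 difference of the 7 was -0.36, beside -0.01 for all genes.

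RNF43 was 13.9 and 9.10 scaled FPKM with mutant KDM5A against 15.6 to 18.8 with empty vector. The log2 difference was -0.56 (SE 0.16, adjusted p = 0.0460, limma), a ratio of 0.670. The mutant libraries differed widely: the difference was -0.84 without the first and -0.28 without the second. Of the 10 fits that each left out 1 library, only the fit without the first mutant library passed, with the others at adjusted p = 0.0520 to 0.208, so each of the other 9 libraries was needed for the call. NOTUM was 2.62 and 4.17 against 4.72 to 5.56 (log2 difference -0.50, SE 0.16, adjusted p = 0.0664, limma), and passed without the second mutant library (-0.76, adjusted p = 0.0205), while without the first it was -0.24.

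NKD1 was 2.43 and 2.49 scaled FPKM with mutant KDM5A against 3.49 to 4.82 (log2 difference -0.56, SE 0.21, adjusted p = 0.0999, limma). ZNRF3 was 7.34 and 9.01 against 9.64 to 12.1 (-0.36, SE 0.14, adjusted p = 0.117). The 3 lowest libraries of both genes were the 2 mutant libraries and the second parental library, the same 3 with the highest share of ribosomal protein genes. For NKD1 the highest of those 3 was 2.72 and the lowest of the other 7 was 2.94, and for ZNRF3 these were 9.01 and 9.64. Across the 10 libraries Pearson's r between level and that share was -0.761 for NKD1 and -0.776 for ZNRF3. It was 0.183 for RNF43, 0.143 for NOTUM, 0.292 for AXIN2, -0.212 for TCF7 and 0.422 for SP5. For LGR5, which was not tested, it was -0.73. How many of all genes have the same 3 lowest libraries or such an r was not counted, so the pattern may be common. These 10 points share libraries and groups and are given without a p. With the share as a covariate the differences were 0.02 for NKD1 and 0.01 for ZNRF3, and neither passed, as in the main fit. In that fit RNF43 with mutant KDM5A was at -0.74 (adjusted p = 0.486, limma), further from 0 than in the main fit. Only 15 of all genes tested passed there. Among KDM5A-/- cells both mutant libraries had a higher share than all 6 others, so the share and the mutant group cannot be told apart there, and the second parental library is the one library outside the mutant group with such a share.

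**Figure D3:**
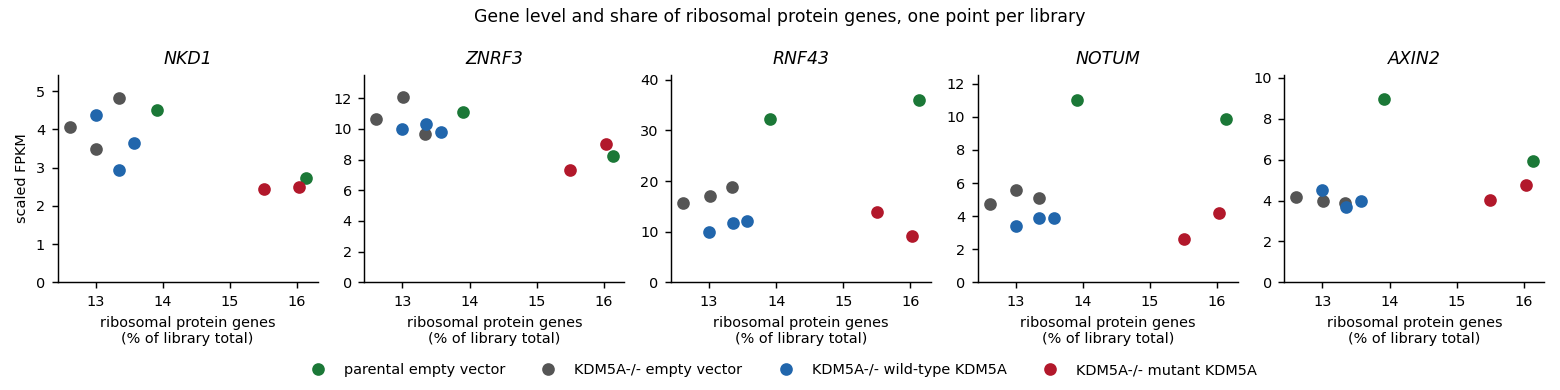
Scaled FPKM of 5 genes (vertical axes, from 0) against the share of ribosomal protein genes in the library total (horizontal axis, percent), with 1 point per library coloured by group. The 3 libraries at 15.5% to 16.1% were the lowest for NKD1 and ZNRF3, whereas for RNF43, NOTUM and AXIN2 both parental libraries were the highest.

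AXIN2 was 4.05 and 4.76 scaled FPKM with mutant KDM5A, overlapping the empty vector (log2 difference 0.11, 95% interval -0.27 to 0.49, adjusted p = 0.693, limma). TCF7 was 22.4 and 22.9 (0.05, interval -0.17 to 0.26, adjusted p = 0.772). SP5 was 1.29 and 1.68 (0.15, interval -0.26 to 0.57, adjusted p = 0.604). SKP1, which overlaps TCF7, was higher by 0.68 (adjusted p = 0.0281, limma).

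Mutant against wild-type KDM5A sets the 2 plasmids against each other directly. None of the 7 members passed, and none reached an unadjusted p under 0.05, beside 0.0562% (10 genes) and 20.2% of all genes tested (limma). The count of 10 genes depended on the libraries in the fit: it was 970 without either parental library, 49 without the second mutant library, 5 to 8 without any other, and 214 with only the libraries compared, and 0 members passed in each of these fits. The log2 difference was 0.01 for RNF43 (95% interval -0.36 to 0.38) and -0.12 for NOTUM (-0.49 to 0.24). It was 0.09 for AXIN2 (-0.28 to 0.47), -0.27 for ZNRF3 (-0.60 to 0.05) and -0.42 for NKD1 (-0.89 to 0.06). For TCF7 it was -0.14 (-0.35 to 0.08) and for SP5 -0.10 (-0.52 to 0.31). NKD1, ZNRF3 and TCF7 did not overlap between the groups and were lower with the mutant, beside 19.4% of all genes. The lower ends of these intervals lie between -0.28 (AXIN2) and -0.89 (NKD1), so a missed threshold does not show that the 2 plasmids act alike.

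Outside the 10 members, 124 other genes of the pathway were listed by role, of which 90 were tested. The list was not chosen for how the genes moved in these comparisons, but it was drawn up with earlier results of these data known.

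Between parental and knockout cells, with the values as deposited, 5 of the 90 were higher in parental cells and 7 lower, in a scale on which the median of all genes was at -0.07. With scaled values 10 of the 90 were higher in parental cells and 7 lower (18.9%, beside 8.94% of all genes). Among 24 other described targets, 7 were higher and 2 were lower in parental than in knockout cells. SOX4, a transcription factor of progenitor cells, was 40.9 and 37.7 scaled FPKM in parental libraries against 9.36, 10.9 and 10.7 (log2 difference 1.84, SE 0.10, adjusted p = 7.59e-05, limma). ID2, an inhibitor of helix-loop-helix factors, was higher by 0.76 (adjusted p = 0.00116, limma). FOSL1 and JUN, subunits of the AP-1 factor, were lower in parental than in knockout cells, by 0.65 and 0.70. Among the antagonists DKK1, a secreted blocker of LRP co-receptors, was lower in parental cells by 0.61 (adjusted p = 0.00273, limma), at 73.5 and 85.7 against 120.3 to 123.6. It was the single one of 8 antagonists that passed. Of 12 receptor genes FZD1 (0.67) and LRP5 (0.33) were higher in parental cells. Of 15 ligand genes WNT6 (0.91) was higher there, while WNT9A (-0.81) and WNT7A (-0.77) were lower. Of 14 nuclear partners the acetyltransferases CREBBP (-0.40) and EP300 (-0.35) were lower in parental cells. None of 17 genes of beta-catenin and its destruction complex passed. Of these 12 named genes, DKK1, FOSL1, FZD1, ID2, JUN and SOX4 passed without any 1 library, and the other 6 lost their call in at least 1 of the 10 such fits. The count of 17 fell to 11 without the second and 9 without the third knockout empty-vector library. Calls among all genes went from 1589 to 824 and 701 in these fits.

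With wild-type KDM5A, 4 of the 90 rose and 1 fell (5.56%, beside 4.54% of all genes). With the values as deposited 1 rose and 4 fell, in a scale on which the median of all genes was at -0.099. PLAUR, the urokinase receptor, was 127.8, 129.0 and 126.1 scaled FPKM against 75.9, 77.2 and 75.0 (log2 difference 0.74, SE 0.04, adjusted p = 8.2e-05, limma). FOSL1 rose by 0.29, PPARD, a nuclear receptor, by 0.31 and the ligand WNT7B by 0.31. BMP4, a ligand of another pathway, fell by 0.27. PLAUR and FOSL1 passed without any 1 library, and the others did not. FOSL1 did not pass with the values as deposited (0.17, adjusted p = 0.0733) or after quantile normalization (0.15, adjusted p = 0.0826, limma). The count of 5 became 2 without any 1 of the empty-vector or wild-type libraries in KDM5A-/- cells. Calls among all genes went from 807 to between 178 and 311 in these fits.

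With mutant KDM5A, 4 of the 90 rose and 21 fell (27.8%, beside 16.5% of all genes). Among all genes tested 1685 rose and 1254 fell. With the values as deposited 1 of the 90 rose and 50 fell, in a scale on which the median of all genes was at -0.30. With the share of ribosomal protein genes as a covariate 1 of the 90 rose and 0 fell, while calls among all genes went from 2939 to 15. Of 14 nuclear partners 6 fell, among them TLE2, a co-repressor (14.5 and 18.8 scaled FPKM against 28.7, 31.9 and 25.4, log2 difference -0.76, SE 0.12, adjusted p = 0.00692, limma), CREBBP (-0.37), EP300 (-0.32) and PYGO2 (-0.37), a co-activator of beta-catenin. Of 12 receptor genes 4 fell: FZD2 (-0.57), FZD7 (-0.43), FZD6 (-0.36) and LRP5 (-0.28). Of 17 genes around the destruction complex 4 fell, among them the tankyrases TNKS2 (-0.44) and TNKS (-0.35), which mark AXIN for degradation, and the kinase CSNK1A1 (-0.56). APC2, a relative of APC, rose by 0.72. The ligands WNT16 (-0.62) and WNT3 (-0.54) and the DKK1 receptor KREMEN2 (-0.47) fell, whereas DKK1 rose by 0.37. Of 24 other described targets PLAUR (0.86) and FOSL1 (0.34) rose and 4 fell, including JUN (-0.37) and BMP4 (-0.33). The FOSL1 value turned to -0.0003 with the values as deposited and to -0.03 after quantile normalization. Of these 20 named genes, BMP4, FOSL1, FZD6, PLAUR, TLE2, TNKS2 and WNT16 passed without any 1 library, and the other 13 lost their call in at least 1 such fit. The count of 25 became 13 and 14 without the second and the third empty-vector library. Calls among all genes went from 2939 to 1464 and 1359 in these fits.

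Mutant against wild-type KDM5A left none of the 90 past the threshold (limma), beside 0.0562% of all genes. At an unadjusted p under 0.05 there were 17 of the 90, beside 20.2% of all genes. With the values as deposited 16 of the 90 passed, all lower, and 1496 of all genes passed. In that scale the median of all genes was at -0.19.

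**Figure D4:**
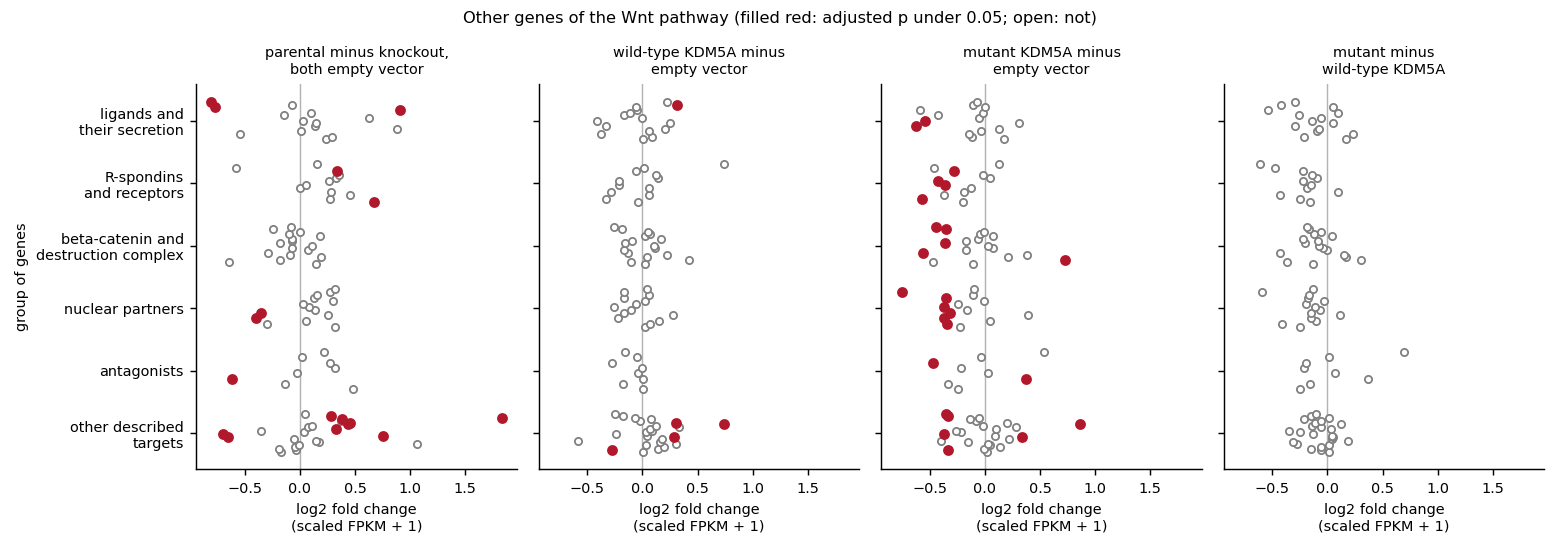
Log2 fold change of scaled FPKM + 1 (horizontal axis) for the 90 other pathway genes tested, by role, in 4 comparisons. Each point is a gene, filled red where it passed at an adjusted p under 0.05: 17 in parental against knockout cells, 5 with wild-type KDM5A, 25 with mutant KDM5A and none in mutant against wild-type.

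The genes most like AXIN2 over the 10 libraries, by the smallest root mean square difference of centred log2(scaled FPKM + 1) among 11598 genes, were ZNF503 (0.115), CCNG2 (0.117) and DHTKD1 (0.118). ZNF503 was 33.3 and 27.8 scaled FPKM in parental cells against 18.4 to 19.6 in knockout cells with empty vector. CCNG2 was 25.3 ± 5.18 (SD, n = 2) against 16.4 to 16.6, and DHTKD1 was 12.2 and 11.6 against 6.86 to 7.28. Since they were chosen for their likeness, their differences are a description.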

How the data were processed

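Per the labels, total RNA of sorted GFP-positive cells was sequenced on an Illumina instrument. Reads were processed with GATK 4.1.2, Picard, Cufflinks 2.2.1 and STAR 2.7.1a on GRCh38, per the submitters' processing notes, which give no order, and the annotation and strand setting are not given in the sources used here. The authors deposited 1 table per library (60141 loci) of log2 FPKM, which is log2 of the value plus 1. The linear values sum to 999975 to 1000008 per library, a fixed total that FPKM need not have, so they may have been rescaled to it. Depth and counting error are therefore unknown.

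Values were returned to the linear scale, summed by symbol and divided by a library factor (median of the ratios to each gene's geometric mean, 13651 genes at 1 or more throughout). A gene was tested if 2 or more libraries reached a scaled value of 1. The model was limma 3.58.1 (eBayes with trend, R 4.3.3) on log2(scaled value + 1), for 10 libraries in 4 groups, with residual df of 6 and prior df of 2.99. Tests are two-sided with Benjamini-Hochberg adjustment over all genes tested, and pass at an adjusted p under 0.05. Log2 differences understate the change of low genes. The method was tested on simulated data. Python 3.11.15, numpy 2.4.6, pandas 2.3.3 and matplotlib 3.10.9 were used.

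Members and lists were chosen with earlier results of these data known. Named were all 10 members, KDM5A, up to 4 genes per list and comparison with the smallest p among those that passed, the 3 genes most like AXIN2, and some genes that overlap members, chosen after their values were seen. Other settings tried were quantile normalization, the values as deposited, a pseudocount of 0.1, no filter, a mean of at least 5, array weights, only the libraries compared, a replicate block, each library left out, and the mutant libraries and second parental library left out together. The share of ribosomal protein genes as a covariate was chosen after seeing the data.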

Additional observations from a re-analysis of the deposited data

How the results depend on the processing

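RNF43 and NOTUM in parental against knockout cells passed in 18 and 19 of 20 settings, and AXIN2 in 9 of 19. Calls there among all genes were 1589 in the main fit, 464 with only the libraries compared and 96 with the share of ribosomal protein genes as a covariate. With that covariate no member passed (0, against 3), with adjusted p of 0.232, 0.222 and 0.0724 for RNF43, NOTUM and AXIN2 (limma). The log2 differences were 0.83 for RNF43, 0.86 for NOTUM and 1.14 for AXIN2, against 0.95, 0.90 and 0.73 without the covariate. The count was 2 to 3 with 1 library left out. Of the wider genes, 6 passed there with only the libraries compared, 4 with the covariate, and 9 to 18 (main 17) with 1 library left out.

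With wild-type KDM5A, 1 member (RNF43) passed as deposited, at a mean of at least 5, with array weights, with only the libraries compared, and without the mutant and second parental libraries, and 0 to 1 with 1 library left out. The wider count of 5 became 8 at a mean of at least 5, 19 with array weights, 16 with only the libraries compared, 16 without those 3 libraries, and 2 to 10 with 1 left out. With mutant KDM5A, 4 members passed as deposited and 0 after quantile normalization, with no filter, with array weights, with only the libraries compared and with the covariate, and 0 to 1 with 1 left out. The wider count of 25 became 51 as deposited, 1 with the covariate and 10 to 29 with 1 left out. In mutant against wild-type KDM5A, 16 wider genes passed as deposited, 1 with no filter and 0 to 5 with 1 left out. Calls among all genes moved too. With wild-type KDM5A, 807 became 945 at a mean of at least 5, 2101 with array weights and 1689 with only the libraries compared. With mutant KDM5A, 2939 became 6615 as deposited, 2134 after quantile normalization, 2155 with no filter and 1984 with array weights. It became 1838 with only the libraries compared and 15 with the covariate. In mutant against wild-type, 10 became 1496 as deposited and 93 with no filter. The cause of these changes was not tested. A fit of fewer libraries has fewer degrees of freedom.

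Correlations of deviations from the group mean were -0.0892 to 0.0509 for 13 same-numbered pairs and -0.0798 to 0.0917 for 24 others. In groups of 2 libraries these deviations mirror each other, so the pairs are not independent and cannot exclude a pairing by replicate number. With the replicate number as a block, 2 wider genes passed with wild-type KDM5A, 7 with mutant KDM5A and 7 in parental cells. Calls among all genes were 214, 1109 and 556 in that order. In the same fit 0 members passed with mutant KDM5A (RNF43 -0.55, adjusted p = 0.117, limma), and AXIN2 in parental cells was at 0.70 (adjusted p = 0.0994, limma).

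Signs turned mostly in members that did not pass. As deposited, AXIN2 was at -0.077 with wild-type and -0.16 with mutant KDM5A, TCF7 at -0.28 and SP5 at -0.0385 with mutant, and AXIN2 at -0.0875 and RNF43 at -0.20 in mutant against wild-type. FOSL1 with mutant KDM5A was at -0.0003 as deposited and -0.034 after quantile normalization. With the covariate, mutant KDM5A gave NKD1 0.0169, ZNRF3 0.0144, SP5 -0.20 and FZD7 0.0014; mutant against wild-type gave NKD1 0.0942, RNF43 -0.14, ZNRF3 0.0643 and TCF7 0.12; and parental against knockout gave NKD1 0.25, ZNRF3 0.12, SP5 -0.0103 and KDM5A -0.0575. Without the mutant and second parental libraries, NKD1 was at 0.11 and ZNRF3 at 0.0418 in parental cells. With 1 library left out, AXIN2 with wild-type KDM5A ranged from -0.0502 to 0.0697 and TCF7 with mutant from -0.0269 to 0.0855. In mutant against wild-type, AXIN2 ranged from -0.0009 to 0.19, RNF43 from -0.27 to 0.29, SP5 from -0.22 to 0.0088 and NOTUM from -0.38 to 0.13. In parental cells NKD1 ranged from -0.46 to 0.11 and ZNRF3 from -0.35 to 0.0418.

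Without read counts, the depth limits on LGR5, LEF1 and ASCL2 are unknown.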
